A study of Mus musculus with 12 samples.

Results

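The 10 genes described here mark macrophages of the heart, and were taken by name from the deposited table of gene counts: Cd68, Lyz2, Adgre1, Csf1r, Cd163, Mrc1, Lyve1, Folr2, Trem2 and Gpnmb. They are 10 of the 53465 genes in the table and of the 16101 that had enough counts to be tested. All 10 were tested, and each had at least 10 counts in every library. RNA was sequenced from the left ventricles of 12 mice, 3 in each of 4 groups, to ask how doxorubicin (DOX), an anthracycline used in chemotherapy, changes the heart with and without Adam17 in its cardiomyocytes. A17fl/fl mice carry floxed Adam17 alleles and served as littermate controls, and A17α-MHCKO mice carry the same alleles together with Cre recombinase under the α-MHC promoter, which removes exon 2 of Adam17 in cardiomyocytes and leaves the gene intact in macrophages. Each genotype received intraperitoneal DOX, 5 mg/kg on days 0, 7, 14 and 21 and 20 mg/kg in total, or the same volume of normal saline (NS), and hearts were taken 4 weeks after the last injection. The animals were on a C57BL/6J background, and the paper describes the mice of these 4 groups as males aged 8 weeks when the injections began. All 4 groups share the floxed alleles, and no group had Cre without them.

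The adult heart holds resident macrophages that are seeded before birth and renew themselves in place, and macrophages that descend from blood monocytes. Resident cells carry scavenger and endocytic receptors such as Cd163, Mrc1, Lyve1 and Folr2, sit close to vessels and cardiomyocytes, and clear debris. Monocyte-derived cells arrive in larger numbers after injury, and part of them take on a lipid-handling state marked by Trem2 and Gpnmb. In RNA from whole heart tissue, fewer macrophages and less RNA per macrophage cannot be told apart.

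By GENCODE M21 on the GRCm38 build, which is not the build of the authors' alignment, Cd68 lies on chromosome 11 from 69664213 to 69666153 and Lyz2 on chromosome 10 from 117277331 to 117282321. Adgre1 (17, 57358691 to 57483527) and Trem2 (17, 48346401 to 48354147) share a chromosome, as do Lyve1 (7, 110850607 to 110863239) and Folr2 (7, 101839988 to 101857194). Cd163 (6, 124304656 to 124330527) and Gpnmb (6, 49036546 to 49070929) are both on chromosome 6, and Mrc1 is on chromosome 2 from 14229392 to 14332057.

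A window of 250 bases upstream of a RefSeq start site on GRCm38.p6 was read for 7 of the 10 genes, and not for Adgre1, Csf1r and Lyve1. The windows were searched on both strands for GGAAGT, the core bound by ETS factors such as PU.1 (Spi1), which is needed to make macrophages. It was present in 3 of the 7 windows, those of Lyz2, Mrc1 and Folr2, against 19.7% of the 32851 windows of that length in the table. These 3 windows are shown with the motif in capitals, beside the window of Gpnmb, which lacks it and belongs to the gene with the largest difference after DOX. Each is written 5′ to 3′ on the gene's strand, without the bases that GENCODE counts in the first exon (49 for Lyz2, 22 for Mrc1, 4 for Folr2). A match is a description of the letters and not a binding site.
Lyz2, chr10:117282322-117282522, minus strand: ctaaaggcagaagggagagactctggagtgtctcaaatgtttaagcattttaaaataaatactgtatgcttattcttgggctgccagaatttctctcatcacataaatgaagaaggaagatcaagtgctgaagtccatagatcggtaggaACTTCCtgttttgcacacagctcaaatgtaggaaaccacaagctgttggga
Mrc1, chr2:14229164-14229391, plus strand: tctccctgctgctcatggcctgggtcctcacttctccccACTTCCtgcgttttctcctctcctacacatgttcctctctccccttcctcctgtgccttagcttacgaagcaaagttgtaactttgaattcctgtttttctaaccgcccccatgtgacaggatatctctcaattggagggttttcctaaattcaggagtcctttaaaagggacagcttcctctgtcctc
Folr2, chr7:101857195-101857440, minus strand: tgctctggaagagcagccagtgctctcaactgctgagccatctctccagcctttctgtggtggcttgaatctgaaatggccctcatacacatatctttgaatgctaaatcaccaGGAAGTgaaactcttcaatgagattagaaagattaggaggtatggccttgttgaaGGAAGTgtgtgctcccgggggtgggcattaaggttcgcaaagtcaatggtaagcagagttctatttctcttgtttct
Gpnmb, chr6:49036268-49036517, plus strand: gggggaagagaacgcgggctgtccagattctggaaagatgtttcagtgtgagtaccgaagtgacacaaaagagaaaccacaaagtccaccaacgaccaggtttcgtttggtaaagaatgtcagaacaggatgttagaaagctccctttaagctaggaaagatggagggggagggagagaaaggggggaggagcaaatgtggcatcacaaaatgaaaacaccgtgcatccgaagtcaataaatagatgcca
Mrc1 and Lyz2 hold the motif as its reverse complement, and Folr2 holds it in 2 places in the forward direction.

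Total counts were between 15950717 and 21725076 per library. A17fl/fl + NS replicate 1 stood apart from the other 11 libraries, at -120 on the first principal component of log2 CPM (counts relative to library size, scaled by TMM) against -12.9 to 28.4. Averaged over its pairs with the rest, its correlation was 0.900, where theirs were 0.948 to 0.966. Adam17 itself was at 27.9 to 36.8 CPM in the 6 A17α-MHCKO libraries and 43.6 to 70.9 in the 6 A17fl/fl libraries, with no overlap. Its log2 difference was -0.64 after NS (adjusted p = 0.313, edgeR) and -0.63 after DOX (adjusted p = 0.9998). All 6 cardiomyocyte markers (Myh6, Tnnt2, Actc1, Ryr2, Myl2, Tnni3) were present in every library, and their sum ran from 23830 to 39370 CPM in the 11 libraries and to 14860 in A17fl/fl + NS replicate 1. Because this library is 1 of 3 controls, comparisons with A17fl/fl + NS were also made without it. Those fits keep replicate 3, which like replicate 1 was low in the atrial genes Nppa, Sln, Myl7 and Myl4. Their mean log2(CPM + 1) was 2.84 in replicate 1 and 2.43 in replicate 3 of that group, and at least 7.66 in every other library. Whether this difference in tissue enters the comparisons with A17fl/fl + NS was not tested.

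On the scale of FPKM, the authors' fragment counts scaled to transcript length and library size, Lyz2 stood far above the other members, with 204 to 1207 and a median of 303. Lyz2 encodes the lysozyme of macrophages and neutrophils. Lyve1, a hyaluronan receptor, had a median of 17.7 FPKM, and Csf1r, the receptor for the growth factors Csf1 and Il34, had 16.1, and the ranges of these neighbours overlapped. Adgre1 (F4/80) followed at 9.47, Mrc1 (the mannose receptor CD206) at 8.59, Cd163 (the haptoglobin-haemoglobin receptor) at 7.80, Cd68 (a lysosomal glycoprotein) at 6.57 and Folr2 (folate receptor beta) at 5.95, again with overlap between each and the next. The range of Csf1r did not overlap that of Adgre1 once A17fl/fl + NS replicate 1 was set aside, 12.8 to 19.8 against 5.66 to 11.9. The lipid-associated genes were lowest. Trem2, a lipid-sensing receptor, had a median of 0.847 FPKM with a range of 0.666 to 3.90, below every Folr2 value (3.99 to 12.5), and Gpnmb, a lysosomal and membrane glycoprotein, had a median of 0.574. Lyz2 has a close paralog, Lyz1, with which 15.4% of the 50-base windows of its transcripts are shared, and Lyz1 held 0.758% to 1.76% of the summed counts of the pair.

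**Figure D1:**
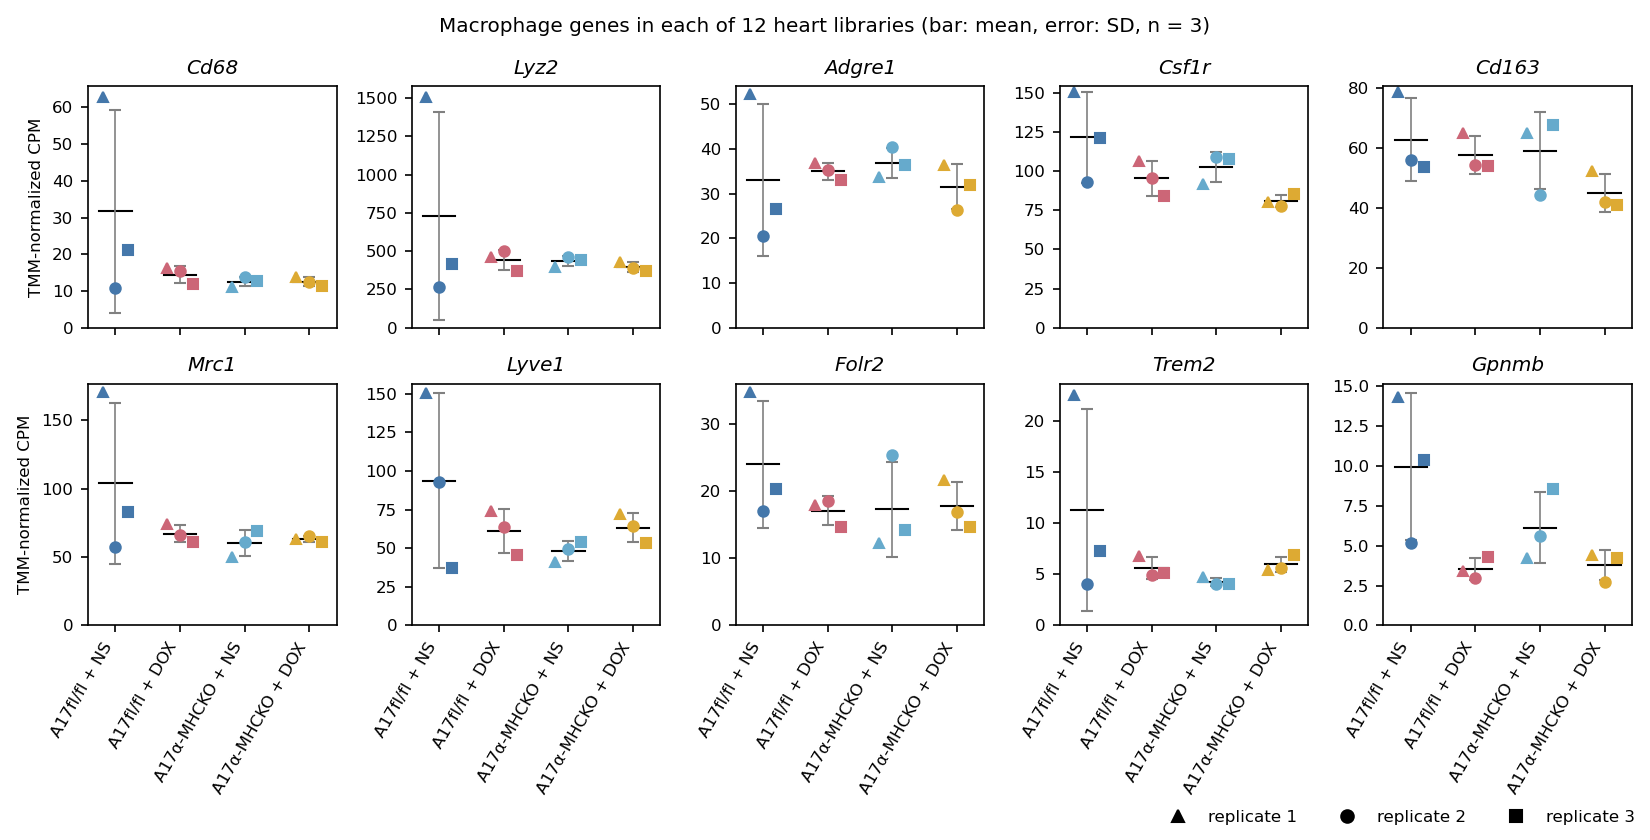
TMM-normalized CPM of each macrophage gene (one panel per gene, linear axis from 0) in the 12 libraries, by group. Points are mice (triangle, circle and square for replicates 1, 2 and 3), horizontal bars are means and vertical lines are SD of 3 mice, and the triangle of A17fl/fl + NS is the highest point in every panel, from 14.3 CPM for Gpnmb to 1505 for Lyz2.

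Levels between libraries are given as CPM scaled by TMM, in the order of replicates 1, 2 and 3. Cd68 was at 62.9, 10.95 and 21.1 CPM in A17fl/fl + NS and 16.3, 15.3 and 11.8 in A17fl/fl + DOX. Cd68 in A17α-MHCKO mice was at 11.2, 13.8 and 12.8 after NS and 13.9, 12.4 and 11.4 after DOX. Its mean was 31.6 ± 27.5 CPM (SD, n = 3) in A17fl/fl + NS and 14.5 ± 2.36, 12.6 ± 1.31 and 12.5 ± 1.25 in the other 3 groups in that order. The control libraries thus held both the highest and the lowest Cd68 of the 12. Lyz2 was at 1505, 267 and 413 in A17fl/fl + NS and 459.8, 499.5 and 368 in A17fl/fl + DOX. Lyz2 in A17α-MHCKO mice was at 397, 459 and 445 after NS and 432, 391 and 370.2 after DOX. As for Cd68, replicates 1 and 2 of A17fl/fl + NS were the extremes.

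Adgre1, the classical surface marker of mouse macrophages, was at 52.2, 20.4 and 26.4 CPM in A17fl/fl + NS and 36.8, 35.3 and 32.9 in A17fl/fl + DOX. Adgre1 in A17α-MHCKO mice was at 33.6, 40.3 and 36.4 after NS and 36.4, 26.4 and 31.8 after DOX. Replicates 2 and 3 of A17fl/fl + NS lay below all 6 libraries of A17fl/fl + DOX and A17α-MHCKO + NS, while replicate 1 lay above them. Csf1r (chromosome 18, 61100598 to 61132149 on GRCm38), on which macrophage survival depends, was at 150.8, 92.9 and 121 in A17fl/fl + NS and 106, 95.7 and 84.1 in A17fl/fl + DOX. Csf1r in A17α-MHCKO mice was at 91.8, 109 and 108 after NS and 80.2, 78.0 and 85.3 after DOX, so that all 3 DOX values lay below all 3 NS values.

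Among the scavenger receptors, Cd163 was at 78.7, 55.9 and 53.6 CPM in A17fl/fl + NS and 65.1, 54.2 and 53.9 in A17fl/fl + DOX. Cd163 in A17α-MHCKO mice was at 65.1, 44.3 and 67.8 after NS and 52.4, 41.9 and 40.9 after DOX. The values after DOX were lower in A17α-MHCKO than in A17fl/fl mice without overlap. Mrc1, which takes up mannose-bearing glycoproteins, was at 170.3, 57.6 and 83.3 in A17fl/fl + NS and 74.1, 66.3 and 61.2 in A17fl/fl + DOX. Mrc1 in A17α-MHCKO mice was at 50.1, 61.1 and 68.9 after NS and 62.9, 65.1 and 61.1 after DOX. Outside the control group Mrc1 was thus within 50.1 to 74.1.

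Lyve1 was at 150.8, 92.6 and 37.5 CPM in A17fl/fl + NS and 74.1, 63.9 and 45.6 in A17fl/fl + DOX. Lyve1 in A17α-MHCKO mice was at 41.1, 49.4 and 54.1 after NS and 72.3, 64.2 and 53.4 after DOX. The 3 control values spanned more than the other 9 libraries together. Lyve1 is also made by lymphatic endothelium, whose markers did not move together in A17fl/fl + NS replicate 1. Pdpn (78.2 CPM, against 3.57 to 8.42 in the other 11 libraries) and Flt4 (53.6 against 28.1 to 41.6) were highest there, while Prox1, the defining transcription factor (18.8 against 37.3 to 66.2), Mmrn1, Ccl21a and Reln were lowest. The 6 markers summed to 158.5 CPM in this library and 99.7 to 136 in the others, and Pdpn is also made by other cells. The part of these cells in the Lyve1 values was not tested. Folr2 was at 34.7, 16.99 and 20.2 in A17fl/fl + NS and 17.98, 18.6 and 14.6 in A17fl/fl + DOX. Folr2 in A17α-MHCKO mice was at 12.2, 25.4 and 14.2 after NS and 21.7, 16.8 and 14.7 after DOX, and its groups overlapped in every comparison.

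Trem2 was at 22.6, 4.07 and 7.33 CPM in A17fl/fl + NS and 6.85, 4.99 and 5.10 in A17fl/fl + DOX. Trem2 in A17α-MHCKO mice was at 4.75, 4.06 and 4.07 after NS and 5.41, 5.65 and 6.86 after DOX, where the DOX values were all above the NS values. Gpnmb was at 14.3, 5.15 and 10.3 in A17fl/fl + NS and 3.40, 2.95 and 4.29 in A17fl/fl + DOX. Gpnmb in A17α-MHCKO mice was at 4.198, 5.57 and 8.54 after NS and 4.41, 2.73 and 4.25 after DOX. The group means of Gpnmb were 9.93 ± 4.60 CPM (SD, n = 3) in A17fl/fl + NS, 3.55 ± 0.680 in A17fl/fl + DOX, 6.10 ± 2.22 in A17α-MHCKO + NS and 3.80 ± 0.926 in A17α-MHCKO + DOX. All 3 A17fl/fl mice given DOX had less Gpnmb than any of their 3 controls, and in A17α-MHCKO mice only the lowest NS value lay within the DOX range. Gpnmb is also made by melanocytes, whose markers (Dct, Tyrp1, Pmel, Mlana, Tyr) summed to 4.39 to 14.5 CPM in 11 libraries and 1.73 in A17fl/fl + NS replicate 1.

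In A17fl/fl + NS replicate 1 every member was the highest of the 12 libraries. Cd68 was there 4.92-fold above the median of the other 11, Trem2 4.44-fold, Lyz2 3.64-fold and Gpnmb 3.34-fold. Lyve1 was 2.79-fold, Mrc1 2.71-fold and Folr2 2.05-fold above it, and Csf1r (1.62-fold), Adgre1 (1.55-fold) and Cd163 (1.46-fold) were above it by less. Of the members, 7 exceeded 2-fold, as did 11.5% of tested genes. Neutrophil markers (S100a8, S100a9, Retnlg and others) summed to 2839 CPM in this library and 9.93 to 86.7 in the other 11. The monocyte list, with Ccr2, Ly6c2 and Plac8, summed to 1166 against 28.6 to 86.2. Ccr2 itself was not highest there, and lay below every A17fl/fl + DOX library. The fibroblast list summed to 4752 against 1167 to 2008. The fibroblast sum was carried by the collagens Col1a1 (2262 CPM against 85.0 to 379) and Col1a2 (1335 against 135 to 433). Pdgfra was also highest there (117.9 against 58.95 to 84.5), while Dcn (959) lay inside the range of the other 11 and Tcf21 (9.35) and Lum (69.2) lay below it. MHC class II genes went the other way, 170.2 CPM against 474 to 1655. Neutrophils make lysozyme as well, and their part in the Lyz2 value was not tested.

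**Figure D2:**
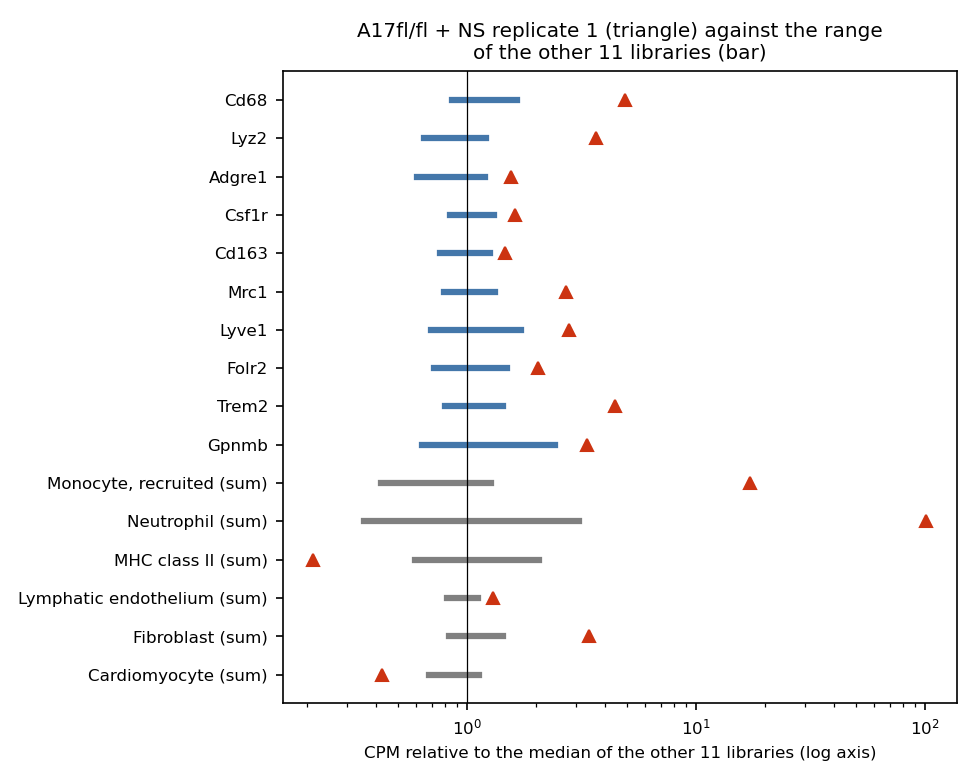
CPM of each member, and summed CPM of 6 marker lists, in A17fl/fl + NS replicate 1 (triangles) on a log axis relative to the median of the other 11 libraries, with bars for the range of those 11. All 10 members lie to the right of their bars, the neutrophil sum is at 2839 CPM against at most 86.7, and the MHC class II and cardiomyocyte sums lie to the left.

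The effect of DOX in A17fl/fl mice was asked first. No member had an adjusted p under 0.05 in edgeR's quasi-likelihood test over all genes, and neither had any other gene (0% of those tested). Gpnmb had the largest difference, a log2 fold change of -1.48 with a standard error (SE) of 0.38 and an unadjusted p of 0.00237. Its adjusted p was 0.334 in edgeR and 0.0324 in DESeq2, and over all alternatives that kept the 12 libraries it ran from 0.0324 to 0.791. Without A17fl/fl + NS replicate 1 the difference of Gpnmb was -1.13 (SE 0.36, adjusted p = 0.339, edgeR). Cd68 had a log2 fold change of -1.13 (SE 0.47, adjusted p = 0.436, edgeR), and without that library it was -0.15. An unadjusted p under 0.05 was reached by 2 members, both lower, against 10.7% of all genes. The same 2, Cd68 and Gpnmb, met the limits of the study's methods (a change of more than 1 on the log2 scale in either direction, p under 0.05 without adjustment, and an average above 1 FPKM in at least 1 of the groups compared), which 2.82% of tested genes met.

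Of the 10 members, 9 had a negative log2 fold change in this comparison, with a median of -0.62, where all tested genes had a median of -0.04. Without A17fl/fl + NS replicate 1, 7 were negative and the median was -0.08. Trem2 moved from -1.01 to -0.02, Mrc1 from -0.63 to -0.07 and Lyve1 from -0.61 to -0.09. Lyz2 changed sign, from -0.72 to 0.37, and so did Cd163, from -0.12 to 0.07. Adgre1 went from 0.08 to 0.58 (SE 0.17, unadjusted p = 0.00505, adjusted p = 0.305, edgeR). Without that library 2 members had an unadjusted p under 0.05, Adgre1 higher and Gpnmb lower, against 10.2% of genes, and 0 met the study's limits, as 1.24% of genes did. Gpnmb left them because the mean of the remaining controls was 0.976 FPKM. Gpnmb was the 1 member whose A17fl/fl groups did not overlap, against 13.3% of tested genes. Leaving out A17fl/fl + NS replicate 2, the control with the least Cd68 and Lyz2, raised the members within the study's limits to 4 and gave Gpnmb (-1.80, adjusted p = 0.0268, edgeR) and Cd68 (-1.54, adjusted p = 0.0477) adjusted p-values under 0.05. That fit keeps A17fl/fl + NS replicate 1 among the remaining controls, and the share of all genes was not computed for it.

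In A17α-MHCKO mice the same treatment gave log2 differences from -0.68 for Gpnmb to 0.48 for Trem2, with a median of -0.07. No member and no other gene had an adjusted p under 0.05 (0%), the smallest among members being 0.807 in edgeR, and none met the study's limits, as 0.658% of genes did. None reached an unadjusted p of 0.05, against 6.42% of genes. Gpnmb was again lower, by -0.68 on the log2 scale (SE 0.38, adjusted p = 0.812, edgeR). Csf1r was at -0.34 (SE 0.17) and Cd163 at -0.39 (SE 0.20), and both had an unadjusted p under 0.05 in the fit without A17fl/fl + NS replicate 1, which left their values as they were and reduced the estimated spread (11.5% of genes then reached it). Trem2 was at 0.48 (SE 0.48) and Lyve1 at 0.39 (SE 0.38). The groups did not overlap for Csf1r, lower after DOX, and Trem2, higher, which makes 2 of 10 against 16.9% of all genes.

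Over both genotypes together, DOX against NS gave Gpnmb a log2 fold change of -1.08 (SE 0.27, unadjusted p = 0.00183, adjusted p = 0.285, edgeR). In DESeq2 the adjusted p was 0.0212, and over the alternatives with 12 libraries it ran from 0.0212 to 0.413. Without A17fl/fl + NS replicate 1 the value was -0.91 (adjusted p = 0.165, edgeR). Csf1r was at -0.35 (SE 0.12, unadjusted p = 0.0157, adjusted p = 0.384, edgeR) and -0.26 without that library. These were the 2 members with an unadjusted p under 0.05, against 10.7% of genes, and the 2 without that library too, against 15.0%. No gene had an adjusted p under 0.05 (0%). All 10 members were negative in the fit of 12 libraries, and 6 of 10 without A17fl/fl + NS replicate 1.

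**Figure D3:**
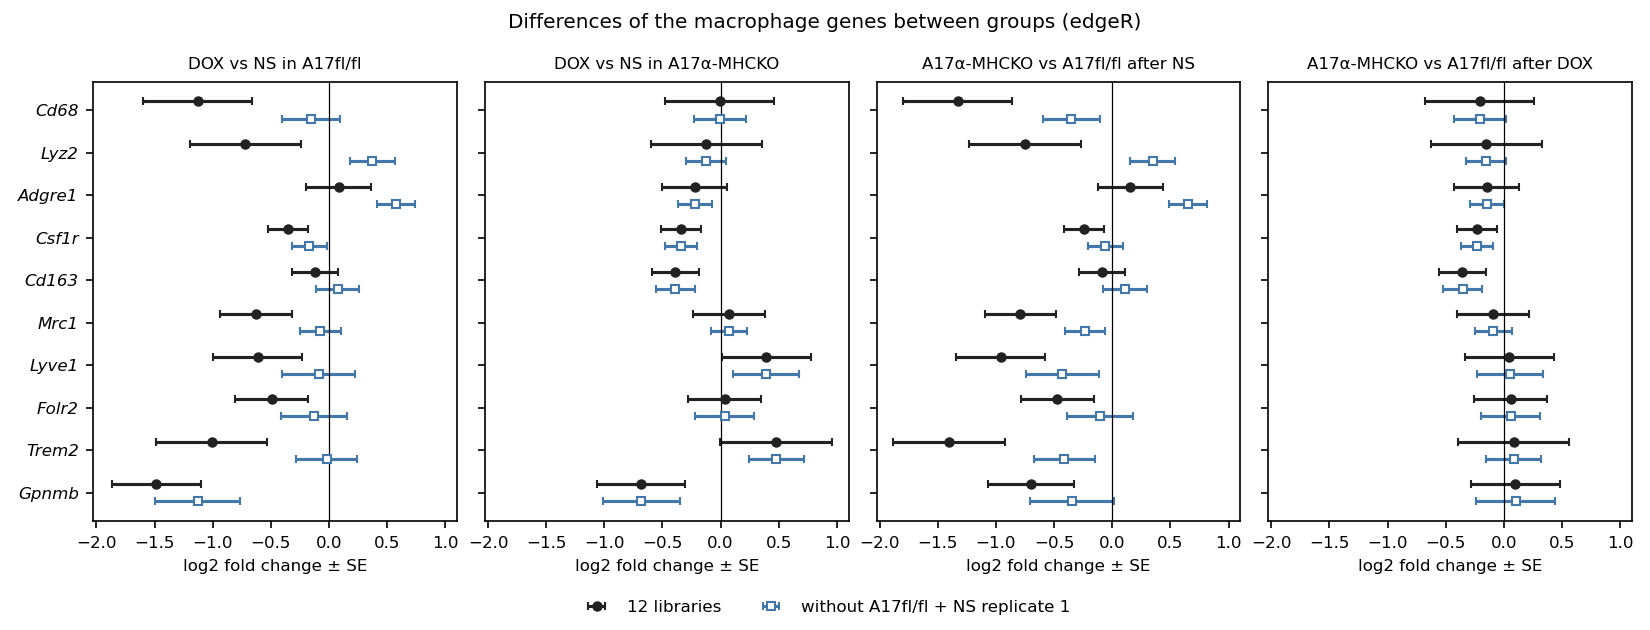
Log2 fold change ± SE of each member in the 4 comparisons between groups, from edgeR, where filled circles use the 12 libraries and open squares leave out A17fl/fl + NS replicate 1. In both comparisons with A17fl/fl + NS the circles of Cd68, Lyz2, Mrc1 and Trem2 lie far left of the squares, whereas Gpnmb after DOX in A17fl/fl mice stays at -1.13 or below in both.

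The genotypes were compared next. After NS, 0 of 10 members had an adjusted p under 0.05, as 0.0186% of genes did (3 genes). Trem2 had a log2 difference between A17α-MHCKO and A17fl/fl of -1.40 (SE 0.48, adjusted p = 0.355, edgeR) and Cd68 of -1.33 (SE 0.47, adjusted p = 0.373), and these 2 met the study's limits, against 2.99% of genes. With Lyve1 at -0.96 (SE 0.38) and Mrc1 at -0.79 (SE 0.31), 4 members reached an unadjusted p of 0.05, all lower, against 10.1% of genes. Without A17fl/fl + NS replicate 1 these were -0.41 for Trem2, -0.35 for Cd68, -0.43 for Lyve1 and -0.23 for Mrc1, and none of the 4 reached it. Lyz2 turned from -0.75 to 0.35. Adgre1 was then the 1 member that reached it, higher in A17α-MHCKO mice by 0.65 (SE 0.17, unadjusted p = 0.00227, adjusted p = 0.199, edgeR), against 10.2% of genes, where all 12 libraries gave 0.16. No member had groups without overlap, as 10.9% of genes did. Without A17fl/fl + NS replicate 2, 5 members met the study's limits and 3 had an adjusted p under 0.05, Cd68 (-1.74, adjusted p = 0.0244, edgeR), Trem2 (-1.80, 0.0272) and Mrc1 (-1.08, 0.0407). Without A17α-MHCKO + NS replicate 3, 4 met the limits. Both fits keep A17fl/fl + NS replicate 1 among the controls, and the shares of all genes were not computed for them.

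After DOX, a comparison that A17fl/fl + NS does not enter, the members' log2 differences ran from -0.36 for Cd163 (SE 0.20) to 0.10 for Gpnmb (SE 0.38), with a median of -0.12 against 0.01 over all genes. After NS the median was -0.73, and -0.17 without A17fl/fl + NS replicate 1, and for Cd163 the value after NS was nearer to 0 (-0.09). No member had an adjusted p under 0.05 (0.00621% of genes, or 1 gene), none reached an unadjusted p of 0.05 (2.70%) and none met the study's limits (0.205%). Cd163 was the 1 member without overlap, lower in A17α-MHCKO mice, against 14.1% of genes. Over both treatments, Cd68 was lower in A17α-MHCKO mice by a log2 difference of -0.77 (SE 0.33, unadjusted p = 0.0400, adjusted p = 0.741, edgeR), the 1 member under 0.05 against 6.65% of genes, and by -0.28 without A17fl/fl + NS replicate 1 (unadjusted p = 0.122). Without that library Adgre1 was higher in A17α-MHCKO mice by 0.25 (unadjusted p = 0.0419), where all 12 gave 0.0034. Adjusted, 0 members and 0.0248% of genes were under 0.05.

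The difference between the DOX effects of the genotypes, A17α-MHCKO minus A17fl/fl, was tested as an interaction. Neither a member nor any other gene had an adjusted p under 0.05 (0%), and 0 members had an unadjusted p under 0.05, against 5.99% of genes. The largest values were 1.49 for Trem2 (SE 0.68, unadjusted p = 0.05001), 1.12 for Cd68 (SE 0.66) and 1.01 for Lyve1 (SE 0.54). They were 0.50, 0.14 and 0.48 without A17fl/fl + NS replicate 1. Adgre1 went from -0.31 to -0.80 (SE 0.22, unadjusted p = 0.00381, adjusted p = 0.497, edgeR). For Gpnmb the interaction was 0.80 (SE 0.53), and 0.45 without that library, so the lower Gpnmb after DOX was not shown to differ between genotypes. The comparisons with A17fl/fl + NS share its 3 libraries, so their values for a member are not independent of each other.

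Within a library, the ratio of a member to Adgre1 does not depend on library scaling. The ratio of Mrc1 to Adgre1 in FPKM was 1.58, 1.37 and 1.53 in A17fl/fl + NS, so replicate 1 lay with its group here. It was 0.901 to 0.977 in A17fl/fl + DOX, 0.722 to 0.917 in A17α-MHCKO + NS and 0.838 to 1.20 in A17α-MHCKO + DOX, all below the controls. The ratio of Folr2 to Adgre1 was 0.819 to 1.03 in A17fl/fl + NS and 0.447 to 0.785 in the other 9 libraries, and that of Gpnmb to Adgre1 was 0.122 to 0.189 against 0.0405 to 0.113. Cd68 to Adgre1 was 0.937 to 2.10 against 0.580 to 0.817. Of the 9 ratios, 5 were lower in A17fl/fl + DOX than in A17fl/fl + NS without overlap, 6 were lower in A17α-MHCKO + NS and 4 in A17α-MHCKO + DOX, and 0 were higher. Over all tested genes the shares lower without overlap were 8.87%, 10.2% and 3.50%. The 9 ratios share their denominator, which was lowest in replicate 2 of A17fl/fl + NS and among the 3 lowest in replicate 3, and these ratios were chosen after the values were seen and were not tested. Relative to Csf1r, Gpnmb was 0.0435 to 0.0745 in A17fl/fl + NS and 0.0242 to 0.0400 in A17fl/fl + DOX, again without overlap. It was 0.0359 to 0.0621 in A17α-MHCKO + NS, which overlapped the controls, and 0.0275 to 0.0431 in A17α-MHCKO + DOX, which did not. The share of all genes without overlap was not computed for ratios to Csf1r.

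Other macrophage genes were read from fixed lists, and none of the 137 tested genes of the lists had an adjusted p under 0.05 in any of the 7 comparisons. Beside the counts of every list below stand the shares of all genes within the study's limits. These were 2.82% after DOX in A17fl/fl mice and 2.99% between genotypes after NS. Without A17fl/fl + NS replicate 1 they were 1.24% and 1.56%. In the wider macrophage list (18 genes, with Fcgr1, the complement genes C1qa, C1qb and C1qc, and Mertk), 3 genes met the study's limits after DOX in A17fl/fl mice. Cd14, the lipopolysaccharide co-receptor, was at -3.61 and Itgam (CD11b) at -1.60 on the log2 scale, and they were at -0.05 and 0.42 without A17fl/fl + NS replicate 1. Cx3cr1, the fractalkine receptor, was at 1.73 (1.75 without it), and its levels were 2.77, 1.98 and 3.38 CPM in A17fl/fl + NS against 6.60, 11.2 and 9.26 in A17fl/fl + DOX. The median of this list turned from -0.54 to 0.26 without that library, and Cx3cr1 alone then met the limits. Between genotypes after NS the same 3 genes met the limits, and again Cx3cr1 alone without that library. Cx3cr1 was there higher in A17α-MHCKO mice by 1.57 (1.59 without that library). In A17α-MHCKO mice DOX gave Cx3cr1 a log2 difference of 0.14, so A17fl/fl + NS was low against the other groups.

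Resident markers beyond the members (15 genes, among them Timd4, Cbr2, F13a1 and Stab1) had a median of -0.78 after DOX in A17fl/fl mice and -0.11 without A17fl/fl + NS replicate 1. Fcna (-1.51, and -0.24 without it) and Clec10a (-1.44, and -0.81) met the study's limits. Between genotypes after NS, 6 of the 15 met them, all lower in A17α-MHCKO mice: Cbr2 (-1.01), F13a1 (-1.37), Vsig4 (-2.01), Fcna (-2.02), Pf4 (-1.46) and Clec10a (-1.19). Without that library the values were -0.87, -0.45, -0.92, -0.74, -0.14 and -0.55, and 0 of the 15 met the limits in either comparison. Cd209g (-2.32, and -2.52 without that library) and Cd209f (-1.485, and -1.54), outside the limits in both fits, did not shrink. Between genotypes after NS, 3 of the 15 had an unadjusted p under 0.05 without that library (edgeR), all lower, against 10.2% of genes.

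The monocyte list had 7 of its 10 tested genes within the study's limits after DOX in A17fl/fl mice (2.82% of all genes), all lower, with a median of -2.71. The median was 0.65, with 0 genes within the limits, without A17fl/fl + NS replicate 1. Ccr2, the chemokine receptor that draws monocytes into tissue, was at 9.75, 3.05 and 5.39 CPM in A17fl/fl + NS and 13.7, 11.7 and 12.1 in A17fl/fl + DOX. Ccr2 was the 1 gene of the list with a positive value in this comparison and in that over both genotypes, where it was at 0.96 (unadjusted p = 0.0271) and the list had a median of -1.06. Without that library Ccr2 was at 1.22 over both genotypes, 9 of 10 genes were positive and the median was 0.58. Of the lipid-associated list, in which Spp1, Fabp5 and Lpl accompany Trem2 and Gpnmb in macrophages, 1 of 12 tested genes met the limits, Spp1, with 545 CPM in A17fl/fl + NS replicate 1 and 0.814 to 3.85 in the others. The list as a whole had a median of -0.38 and of 0.05 without that library.

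MHC class II genes, through which macrophages and dendritic cells present antigen, were higher after DOX in A17fl/fl mice in 5 of 7 genes by the study's limits, which 2.82% of all genes met, with a median of 1.304. Only 2 of 7, H2-Ab1 and Ciita, met them without A17fl/fl + NS replicate 1 (1.24% of all genes), with a median of 0.88. H2-Ab1 was at 31.3, 91.9 and 66.9 CPM in A17fl/fl + NS and 169, 161 and 172 in A17fl/fl + DOX (log2 fold change 1.40, and 1.08 without that library). After NS all 7 were higher in A17α-MHCKO than in A17fl/fl mice by the same limits (2.99% of all genes), with a median of 1.45, Ciita, their transactivator, being at 2.04. Without it 5 met them (1.56% of all genes), the median was 1.04 and Ciita was at 1.69. In A17α-MHCKO mice DOX gave them a median of -0.20, with 0 of 7 within the limits. The interaction had a median of -1.49 (-1.07 without that library), with 4 of 7 at an unadjusted p under 0.05 in each fit, against 5.99% of all genes in the fit of 12 libraries. Ciita, H2-Ab1 and H2-DMb1 were under it in both fits, Cd74 only with all 12 libraries and H2-Eb1 only without that library. In the comparison of genotypes after DOX, as in that of DOX with NS in A17α-MHCKO mice, 0 genes of the macrophage lists met the study's limits.

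**Figure D4:**
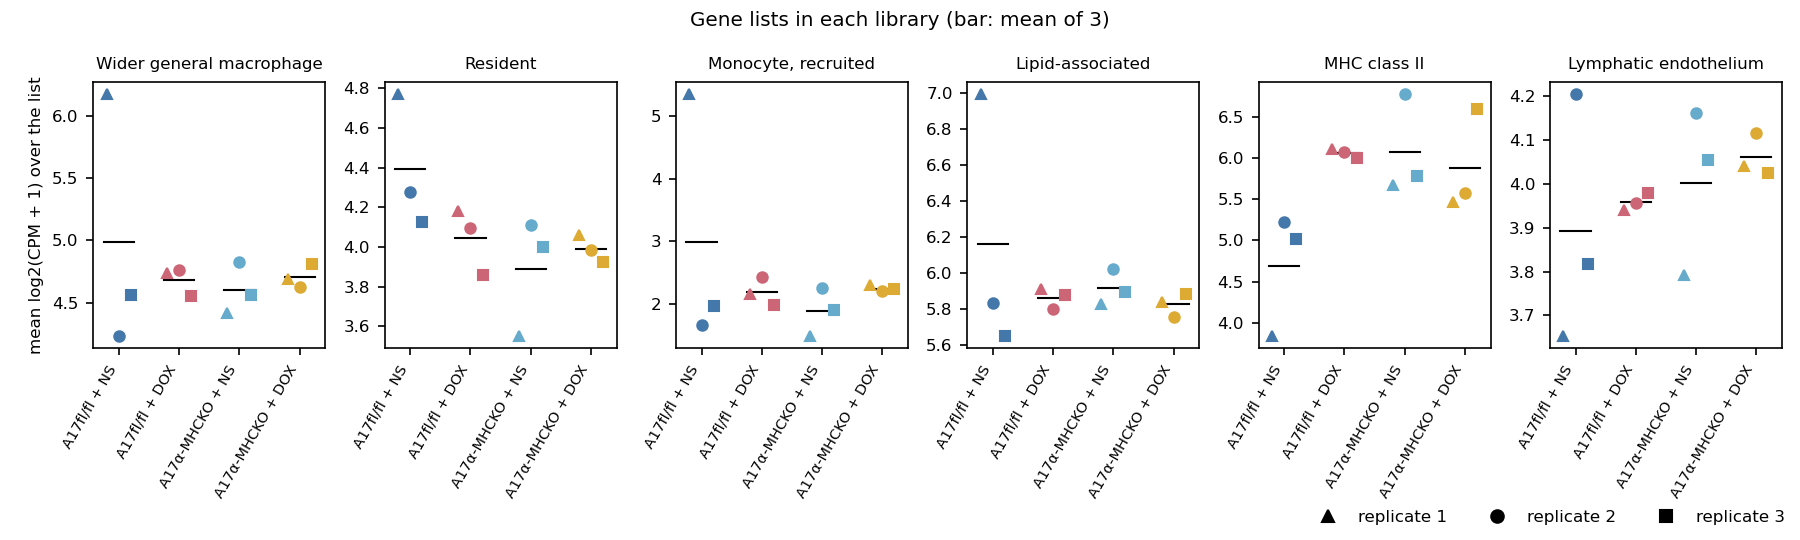
Mean log2(CPM + 1) over the genes of 6 lists in each library, by group, with bars at the mean of 3 and an axis fitted to each panel that does not start at 0. A17fl/fl + NS replicate 1 (triangle) is the highest point for the wider macrophage, resident, monocyte and lipid-associated lists and the lowest for MHC class II, where the other controls also lie below A17fl/fl + DOX.

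Ligands and partners of the members formed a further list. Csf1, a ligand of Csf1r, was at 65.7, 56.9 and 47.4 CPM in A17fl/fl + NS and 40.9, 46.7 and 46.2 in A17fl/fl + DOX, a log2 fold change of -0.35 (unadjusted p = 0.0934), and Il34, the other ligand, was at -0.49 (unadjusted p = 0.0946). These were -0.23 and -0.42 without A17fl/fl + NS replicate 1. In the haemoglobin path of Cd163, Hmox1, which degrades haem, was at 370 CPM in A17fl/fl + NS replicate 1, 20.4 and 70.2 in the other controls and 12.2 to 20.5 in A17fl/fl + DOX. The Hmox1 difference was -3.30 and -1.54 without that library (unadjusted p = 0.00197), and Slc40a1, the iron exporter, was at -1.02 and -1.22. Has1, a hyaluronan synthase and so a source of the ligand of Lyve1, was at -2.75 and -2.30. Tyrobp, the adaptor through which Trem2 signals, was at 110 CPM in A17fl/fl + NS replicate 1 and 14.4 to 25.1 in the others. Of the 16 partner genes, 5 met the study's limits after DOX in A17fl/fl mice, all lower, the remaining ones being Hp (-3.23, and -0.62 without that library) and Hcst (-1.95, and 0.19). Without it Hmox1, Slc40a1 and Has1 met them. Between genotypes after NS, Hmox1 (-3.34, and -1.58 without that library), Has1 (-1.96, and -1.50) and Hp (-2.63, and -0.01) met them, all lower in A17α-MHCKO mice. Hmox1 and Has1 met them there without that library too. In A17α-MHCKO mice DOX gave Hmox1 a log2 difference of 0.16 and Has1 one of -1.32.

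Over the 12 libraries, Spearman's rho between members had a median of 0.385 over 45 pairs, of which 41 were positive, and over the 11 libraries without A17fl/fl + NS replicate 1 a median of 0.20 with 34 positive. Cd68 and Mrc1 were the closest pair, with 0.895 and 0.864. Adgre1 and Lyz2 followed the same order at 0.832 and 0.782, and Csf1r and Gpnmb had 0.678 and 0.582. Trem2 and Gpnmb, both named for the lipid-associated state, had 0.05 and -0.24. Among 12654 other genes with a mean over 1 CPM, those most like Csf1r were Maf, a transcription factor of resident macrophages (0.923), Nup98 and Slc25a37 (both 0.909). Those most like Folr2 were Pepd (0.958), Arl6 (0.951) and the complement gene C1qc (0.895), and Adgre1 was nearest to Tmem97 (0.965), Qtrt1 (0.951) and the lysosomal protease Ctsh (0.944). Cd68 was nearest to Gtf2e1 (0.930), Ankrd37 (0.923) and Chil3 (0.916), a chitinase-like gene of monocytes and macrophages, and Gpnmb to Hook2 and Rhou (both 0.881) and Clba1 (0.853). Lyz2 was nearest to Fbxo4 (0.923), Dynlt1c (0.916) and Cklf (0.895), and Cd163 to Atp7a, Cmip and Nos3 (each 0.895). Mrc1 was nearest to Noc4l (0.902), Pde12 (0.895) and Dus1l (0.888), Lyve1 to Carhsp1 (0.930), Adamts1 (0.923) and Stbd1 (0.902), and Trem2 to Dnase2a (0.937), Gpat3 (0.930) and Cds1 (0.923). These correlations rest on shared libraries and their scaling and are descriptions.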

How the data were processed

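RNA of 12 hearts, left ventricular samples by the paper's account, was sequenced as stranded paired-end mRNA libraries, 1 per mouse. The submitters' processing notes name CASAVA 1.8, HISAT2, SAMtools 1.3.1, edgeR and GRCm39, and per the paper StringTie counted fragments per gene. The annotation release and the strand setting of the counting are not given in the sources used here. The authors deposited a table of 53465 genes with an unnormalized count and an FPKM for each mouse. The deposited FPKM were used for the expression limit, for levels between genes and for ratios within a library. All columns were matched to mice by group and number.

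All tests used counts and edgeR 4.0.16 under R 4.3.3 (filterByExpr, TMM, glmQLFit and glmQLFTest, 1 mean per group, Benjamini-Hochberg adjustment over 16101 genes), tested on simulated data. The SE of a log2 fold change is its size over the root of the F statistic. With 3 mice a group, p-values measure the spread between mice, counting error included. Alternatives were DESeq2 1.42.0, other scalings, filters and tests, a replicate block, CPM in place of FPKM, Lyz1 and Lyz2 summed, and each library left out. GENCODE M21 holds 53274 of the table's genes. The 10 genes and the 20 marker lists were chosen with earlier results of these data known. Genes outside the 10 are named only where they met the study's limits, define a list or rank among the 3 nearest by Spearman's rho, and others were chosen after their values were seen.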

Additional observations from a re-analysis of the deposited data

How the results depend on the processing

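Of 1377 values of single members under the alternatives, 1325 kept their direction and their side of an adjusted p of 0.05, 10 passed it and 42 changed sign. No member was past it with all 12 libraries in edgeR's test, so no call could be lost. With DESeq2, and likewise with the likelihood ratio test, 1 member, Gpnmb, had an adjusted p under 0.05 after DOX in A17fl/fl mice (0.0324 and 0.0493) and 1, again Gpnmb, over both genotypes (0.0212 and 0.0454). With a replicate block, or with the 2 groups alone, 1 member met the study's limits after DOX in A17fl/fl mice, and with the 2 groups alone 0 met them between genotypes after NS. The replicate block changed no other call. Same-numbered mice did not deviate together throughout (correlations of their deviations from the group means -0.10 to 0.22), so the numbers were not read as pairs. Cd68 after DOX in A17α-MHCKO mice changed sign to 0.0018 with upper-quartile factors. The interaction of Csf1r changed sign with upper-quartile factors (-0.0351), without a filter (-0.0101), with 10 counts in every library (-0.0143) and with the replicate block (-0.0070). The causes were not tested.

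Leaving out 1 library at a time, the members within the study's limits numbered 0 to 4 after DOX in A17fl/fl mice (0 without A17fl/fl + NS replicate 1, 4 without replicate 2, and 1 without each DOX mouse) and 0 to 5 between genotypes after NS. Those with an adjusted p under 0.05 numbered 0 to 2, 0 to 3 and, over both genotypes, 0 to 1 (Gpnmb, -1.24, adjusted p = 0.0433, edgeR, without A17fl/fl + NS replicate 2). Shares over all genes were computed only without A17fl/fl + NS replicate 1, and there not for the adjusted p. After DOX in A17fl/fl mice Lyz2 ran from -1.12 to 0.37, Adgre1 from -0.17 to 0.58 and Cd163 from -0.22 to 0.073. In A17α-MHCKO mice Cd68 ran from -0.086 to 0.060, Mrc1 from -0.042 to 0.17 and Folr2 from -0.16 to 0.42. Between genotypes after NS Lyz2 ran from -1.14 to 0.35, Adgre1 from -0.095 to 0.65 and Cd163 from -0.19 to 0.11. After DOX Lyve1 ran from -0.13 to 0.21, Folr2 from -0.11 to 0.18, Trem2 from -0.026 to 0.25 and Gpnmb from -0.021 to 0.29. For DOX over both genotypes Lyz2 ran from -0.62 to 0.13, Adgre1 from -0.20 to 0.18, Lyve1 from -0.30 to 0.15 and Trem2 from -0.46 to 0.23. For genotype over both treatments Lyz2 ran from -0.65 to 0.10 and Adgre1 from -0.12 to 0.25. In the interaction Lyz2 ran from -0.50 to 0.99 and Csf1r from -0.17 to 0.17. The fewest counts of a member in a library were 42, for Gpnmb, and counting error and the spread between mice were not separated.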

Other observations

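Lists of other immune cells were low in most libraries. The dendritic list (Flt3, Xcr1, Clec9a, Cd209a, Zbtb46, Ccr7) summed to 24.6 to 41.3 CPM in 11 libraries and 21.2 in A17fl/fl + NS replicate 1, the T and NK cell list to 2.64 to 8.77 and 1.73, and the B cell list to 0.752 to 3.35 and 1.44. None of the tested genes of these lists met the study's limits in any of the 4 comparisons between groups. The neutrophil list had 7 of 8 tested genes within the limits, all lower, both after DOX in A17fl/fl mice (2.82% of all genes) and in A17α-MHCKO mice after NS (2.99%). Without A17fl/fl + NS replicate 1 its medians went from -5.61 to 0.04 and from -5.65 to -0.19, with 0 genes within the limits.

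Among tissue lists, endothelial markers summed to 831 to 1243 CPM with A17fl/fl + NS replicate 1 at 1057, inside that range. Red-cell genes summed to 2253 CPM in that library and 346 to 1202 in the others. Atrial genes (332 to 8048 CPM), adipocyte genes (0.125 to 38.8) and mesothelial genes (3.78 to 106) varied most between the 11 libraries, with A17fl/fl + NS replicate 1 inside each range (1021, 0.577 and 16.1). The low ends of the atrial and adipocyte ranges were those of A17fl/fl + NS replicate 3. Mean log2(CPM + 1) of the atrial genes was 2.84 in replicate 1 and 2.43 in replicate 3 of that group, and at least 7.66 in every other library. Adipocyte sums were at least 7.28 CPM outside these replicates. The fits without replicate 1 keep replicate 3, and the reason for these differences between libraries was not tested. Of these lists, Krt19 of the mesothelial list met the study's limits, lower after DOX in A17α-MHCKO mice (-2.68 on the log2 scale, unadjusted p = 0.0379). Of the cardiomyocyte list, Actc1 met them after DOX in A17fl/fl mice (1.02, and 0.77 without A17fl/fl + NS replicate 1). Pdpn of the lymphatic list was lower within the limits in the same comparison (-2.72, and -0.60 without that library) and between genotypes after NS (-2.07, and 0.06). No gene of the fibroblast, melanocyte or endothelial lists met them in the 4 comparisons between groups.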
